A study of Mus musculus with 6 samples.

Results

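The nuclear factor I genes *Nfia*, *Nfib*, *Nfic* and *Nfix* were examined for AGO2 binding and for the miRNAs ligated to their RNA, 4 of the 49997 mouse RefSeq genes. Members were chosen by name, and a cluster was counted when it overlapped the mm10 RefSeq gene body on the same strand. *Nfia* (gene ID 18027) lies on chromosome 4 from 97578066 to 98118876 on the plus strand, and *Nfib* (18028) on chromosome 4 from 82290173 to 82506751 on the minus strand. *Nfic* (18029, chromosome 10, 81396191 to 81431919) and *Nfix* (18032, chromosome 8, 84704712 to 84801238) are also on the minus strand. In WT, the genes held 577 of 359172 AGO2 clusters and 44 of 18029 miRNA target clusters. In *Mov10* Deletion replicate 1 they held 900 of 616014 and 50 of 27152, and in replicate 2 they held 900 of 616005 and 24 of 12379.

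Whole brains of C57Bl/6J pups taken at P0, the day of birth, gave 1 AGO2 chimeric eCLIP library for WT and 2 for *Mov10* Deletion, and each had its own size-matched input. In this assay RNA crosslinked to AGO2 is immunoprecipitated (IP) and sequenced, and some miRNAs are ligated to the target RNA held in the same complex, so that a read names both. *Mov10* Deletion mice came from a cross of mice whose floxed *Mov10* is excised by *Emx1*-Cre with a heterozygous *Mov10* mutant. *Emx1*-Cre acts in excitatory neurons of the forebrain, whereas the whole brain was sampled, so cells outside the *Emx1* lineage were in the libraries too. The paper describes the heterozygous mutant as having less MOV10 throughout the brain, so its allele is not limited to that lineage. With 1 WT library no test between genotypes was possible, and values of single libraries are set side by side. A change in the number of cells of a type and a change in AGO2 binding per cell cannot be told apart in whole brain.

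Nuclear factor I proteins are transcription factors that bind the same DNA motif as dimers. In the developing brain, NFIA, NFIB and NFIX drive radial glial progenitors to differentiate and start the programme of astrocytes, and they are also expressed in young neurons, while NFIC is best known from tooth root formation. AGO2 is guided by a miRNA whose seed, nucleotides 2 to 8, pairs with the target RNA, most often in the 3’UTR. miR-124 is the main miRNA of neurons, miR-9 is abundant in neural progenitors and neurons, and the let-7 and miR-125 families accumulate as cells differentiate.

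The target clusters of the genes named 39 miRNAs, of which 33 had a mature sequence in the RefSeq table (GRCm38.p6). Of the 33, those that recurred in the genes are shown 5′ to 3′ with the seed in capitals. So are those that share a seed with a miRNA that recurred, or with each other at a common position. miR-124-3p, miR-466i-5p, miR-466f-3p and miR-30b-5p were among the miRNAs without a sequence, so no seed was searched for them.
let-7b-5p: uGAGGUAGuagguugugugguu
miR-125b-5p: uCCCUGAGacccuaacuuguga
miR-9-5p: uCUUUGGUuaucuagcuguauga
miR-19b-3p: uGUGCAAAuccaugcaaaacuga
miR-92a-3p: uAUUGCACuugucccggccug
miR-92b-3p: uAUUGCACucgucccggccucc
miR-30c-5p: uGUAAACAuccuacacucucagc
miR-30e-5p: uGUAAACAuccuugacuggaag
miR-17-5p: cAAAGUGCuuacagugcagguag
miR-93-5p: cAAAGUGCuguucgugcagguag
miR-106b-5p: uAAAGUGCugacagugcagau
They fell into shared seeds: miR-92a-3p with miR-92b-3p, miR-30c-5p with miR-30e-5p, and miR-17-5p with miR-93-5p and miR-106b-5p.

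The 7 letters complementary to each seed were searched on the sense strand of the genes, which was the strand of the clusters. The sites that carry the target findings below are shown as 30 nt of GRCm39, 5′ to 3′, with the match in capitals and its GRCm39 position. Clusters are in mm10 and sites in GRCm39, and they were set beside each other only by distance from the 3’ end of the gene.
*Nfib* intron, let-7b-5p, chr4:82389647-82389653: agcacacaccctgacCTACCTCttatacag
*Nfib* 3’UTR, miR-30c-5p and miR-30e-5p, chr4:82214563-82214569: ggttagtattcttgtTGTTTACgcatggag
*Nfib* 3’UTR, miR-125b-5p, chr4:82210427-82210433: ctcacataacgtgtcCTCAGGGagcagaat
*Nfib* coding sequence, miR-17-5p, miR-93-5p and miR-106b-5p, chr4:82416550-82416556: cactgcacaaacccaGCACTTTgtgttcag
*Nfix* 3’UTR, miR-92a-3p and miR-92b-3p, chr8:85433494-85433500: tgacgcgcggtcaaaGTGCAATgatttttc
*Nfib* 3’UTR, miR-19b-3p, chr4:82213546-82213552: ttccagtaatcctaaTTTGCACgaagatat
*Nfic* 3’UTR, miR-19b-3p, chr10:81234937-81234943: tccattatttccaaaTTTGCACgaactttt
*Nfia* 3’UTR, miR-19b-3p, chr4:98001567-98001572: attatttgtggaattgTTGCACatgctcct
The *Nfia* site matches only 6 of the 7 letters.

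AGO2 clusters were enriched more often on *Nfix* and *Nfic* than on *Nfia* and *Nfib* in each of the 3 libraries. A cluster was called enriched where the deposited log2 ratio of IP to input reached 3 and its −log10 p-value also reached 3. In *Nfic*, the enriched clusters were 10 of 28 for WT, 18 of 39 for *Mov10* Deletion replicate 1 and 3 of 39 for replicate 2, which are shares of 35.7%, 46.2% and 7.69%. In *Nfix*, 15 of 61, 37 of 125 and 23 of 125 were enriched, or 24.6%, 29.6% and 18.4%. The background, the share over all clusters of a library, was 2.11% for WT, 5.18% for *Mov10* Deletion replicate 1 and 3.1% for its second replicate. The *Nfix* shares were above these levels in every library, with exact Clopper-Pearson 95% intervals from 14.5 to 37.3%, from 21.8 to 38.4% and from 12 to 26.3%. The *Nfic* interval in *Mov10* Deletion replicate 2, from 1.62 to 20.9%, included the level of its library. Intervals here and below cover counting error only, and clusters of a gene are not independent.

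*Nfia* and *Nfib* had many clusters and few that were enriched. *Nfia* held 244, 401 and 401 clusters, of which 1, 12 and 6 were enriched. *Nfib* held 244, 335 and 335, of which 1, 9 and 10 were enriched. The shares ranged from 0.41 to 2.99% and lay below the level of all clusters in each of the 3 libraries, and the intervals included that level except in *Mov10* Deletion replicate 1. There the upper bounds were 5.17% for *Nfia* and 5.04% for *Nfib*, against the level of 5.18%. Both genes are long, and per 10 kb of gene *Nfib* had the most clusters of the members, 11.3 for WT against 7.84 in *Nfic*, 6.32 in *Nfix* and 4.51 in *Nfia*.

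**Figure D1:**
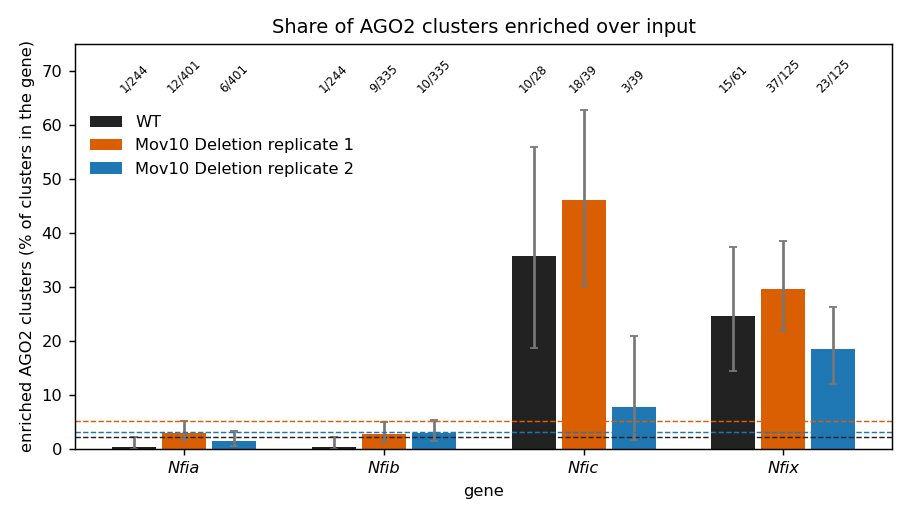
Share of AGO2 clusters enriched over input in each gene (y axis, % of clusters) by library, with exact 95% intervals and the number enriched over the number of clusters above each bar. Dashed lines give the share over all clusters of the library in the same colour. *Nfix* stands above its line in all 3 libraries, and *Nfia* and *Nfib* stand below theirs.

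Read numbers were inferred from the deposited ratio and p-value. Over 1 input read, the calculated minimum of IP reads for an enriched cluster was 16 for WT, 9 for *Mov10* Deletion replicate 1 and 8 for replicate 2. Enriched clusters of these genes had at least 20, 9 and 8 inferred IP reads and a median of 44, 17 and 11. Total depth is unknown. With at least 16 inferred IP reads asked of every library, the genes had 27, 45 and 9 enriched clusters instead of 27, 76 and 42. The WT count could not fall, because 16 is the calculated minimum for WT. The count of *Mov10* Deletion replicate 1 was above that of WT both times, and the count of replicate 2 fell below it. Clusters were present in every library in 4 of 4 neuronal genes (*Tubb3*, *Map2*, *Dcx*, *Stmn2*) and 3 of 3 genes of radial glia and astrocytes (*Slc1a3*, *Fabp7*, *Vim*). Of 3 liver genes, 1 (*Alb*) had up to 3 clusters, none of them enriched. Few brain genes had an enriched cluster in WT either, 1 of the 4 neuronal genes and 0 of the 3 of radial glia and astrocytes. In each *Mov10* Deletion replicate these numbers were 3 and 2. Of all genes with a cluster, 18.7% had an enriched cluster in WT, and 40.9% and 32.1% in the replicates. The share was thus higher in *Mov10* Deletion over all genes too, and the rise is not particular to these markers.

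On *Nfic*, clusters were enriched more often in the 3’UTR than in introns in WT and *Mov10* Deletion replicate 1, with few enriched in either region in replicate 2. The shares of 3’UTR and intronic clusters enriched over all genes were not counted. In WT, 10 of 13 clusters in the 3’UTR were enriched and 0 of 15 in introns. For *Mov10* Deletion replicate 1 the numbers were 13 of 17 and 5 of 21, and for replicate 2 they were 2 of 17 and 1 of 21. The median log2 of the 3’UTR clusters was 3.34 for WT, 3.97 for replicate 1 and 2.84 for replicate 2, where it lay just under the threshold. The highest cluster in WT, chr10:81399980-81400089, had a log2 of 5.31 (interval 2.76 to 10.64, 47 inferred IP reads over 1 input read). The cluster at the same place in *Mov10* Deletion replicate 1, chr10:81399941-81400030, had the highest log2 of the gene there, 5.19 (3.25 to 8.28). Next in WT came chr10:81400334-81400426 with 5 and chr10:81398491-81398572 with 4.25. These 3 WT clusters lay 2300 to 4235 nt from the 3’ end of the gene. Positions beyond 4126 nt are in the 3’UTR only of transcripts whose stop codon is farther upstream than in the Ensembl canonical form.

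2 stretches of the *Nfic* 3’UTR were enriched in all 3 libraries. At chr10:81398535-81398579, the *Mov10* Deletion replicates had 4.05 (2.00 to 7.19) and 4.58 (1.76 to 10.02), and the overlapping WT cluster had 4.25 (2.31 to 7.34). At chr10:81400606-81400658, log2 was 4.55 (2.56 to 7.67) and 4.84 (2.08 to 10.26), and in WT 3.80 (2.38 to 5.72). This second stretch lies upstream of the canonical stop codon and is in the 3’UTR of other transcripts only. Differences between libraries were smaller than the intervals at both places. The other leading *Nfic* clusters of *Mov10* Deletion were enriched in 1 replicate, among them chr10:81400576-81400605 in the 3’UTR with 4.61 and chr10:81425372-81425407 in an intron with 4.97 in replicate 1, and chr10:81410034-81410055 in an intron with 4.25 in replicate 2.

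**Figure D2:**
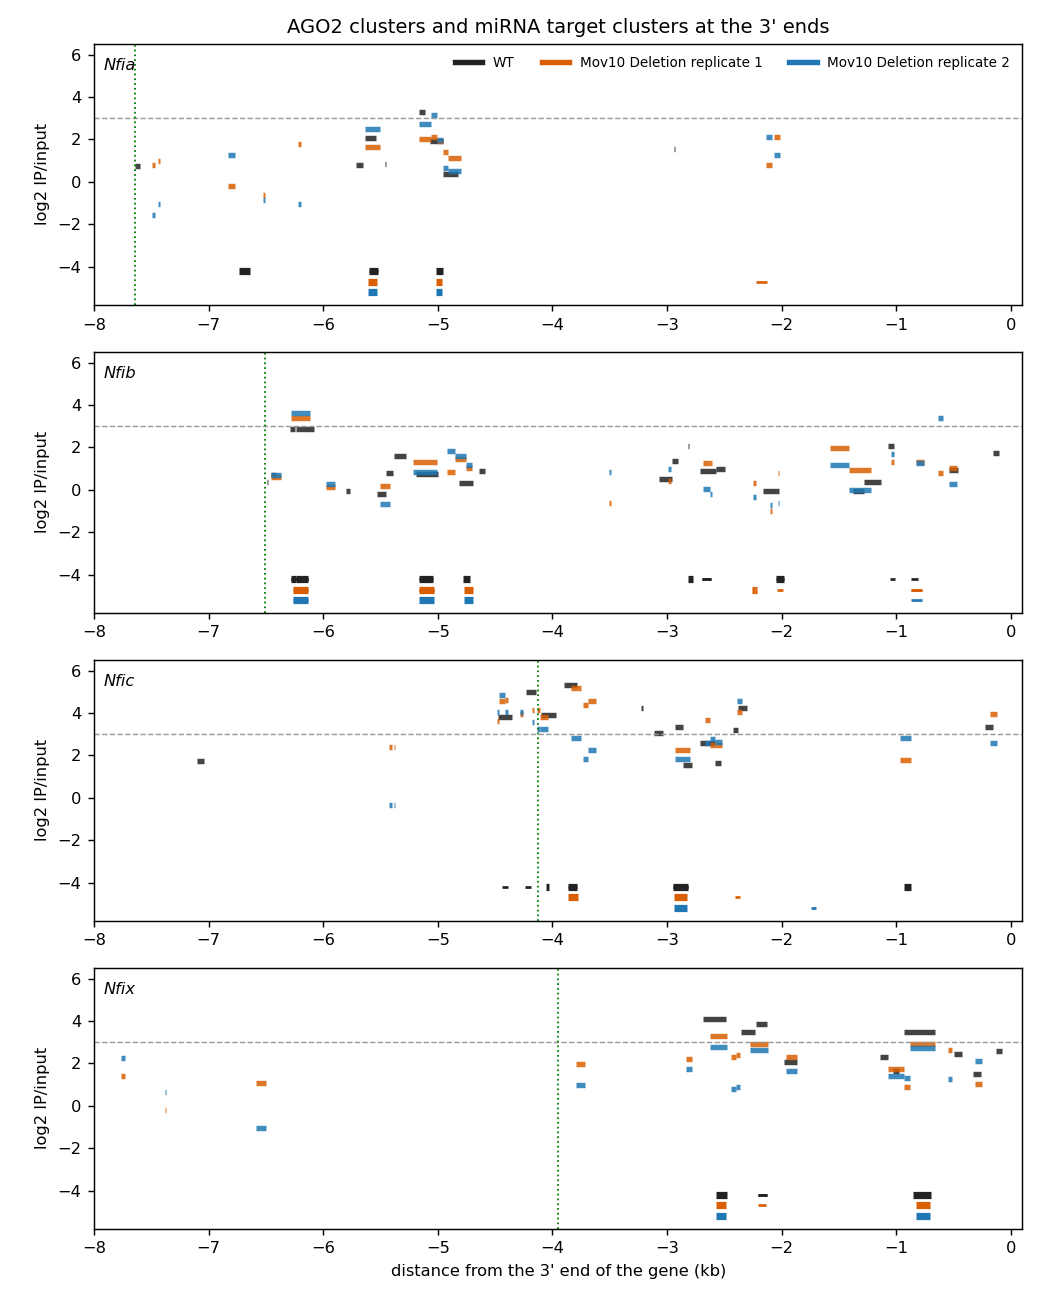
AGO2 clusters (bars at their log2 IP over input, y axis) and miRNA target clusters (marks under the clusters, thick for miR-124-3p, thin for other miRNAs) against the distance from the 3’ end of each gene in kb, by library. The dashed line marks a log2 of 3 and the dotted line the stop codon of the Ensembl canonical transcript. The *Nfic* 3’UTR has 10 enriched clusters in WT and 13 in *Mov10* Deletion replicate 1. Some of these lie upstream of the dotted line, in the 3’UTR of other transcripts only. The thick marks stack in all 3 libraries at 2 places in *Nfia*, 3 in *Nfib*, 1 in *Nfic* and 2 in *Nfix*.

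On *Nfix*, most enriched clusters lay in introns, as did most clusters of the gene whether enriched or not. In WT 11 of 51 intronic clusters and 4 of 10 in the 3’UTR were enriched. For *Mov10* Deletion replicate 1 the numbers were 36 of 113 and 1 of 12, and for replicate 2 they were 23 of 113 and 0 of 12. The enriched share was thus lower in introns than in the 3’UTR in WT, 21.6% against 40%. It was higher in introns in the *Mov10* Deletion replicates, 31.9% against 8.33% and 20.4% against 0%. Shares by region over all clusters of a library were not counted. The WT maximum, and the highest log2 of any member in WT, was at chr8:84746275-84746431, 41563 nt from the 3’ end, with 6.13 (3.61 to 11.45, 83 inferred IP reads over 1 input read). At that intronic stretch the *Mov10* Deletion cluster, chr8:84746296-84746385, had 4.14 (2.94 to 5.65) in replicate 1 and 3.34 (1.73 to 5.37) in replicate 2. The adjoining WT cluster chr8:84746432-84746498 had 4.18, and the *Mov10* Deletion cluster chr8:84746476-84746514 over it had 3.73 and 3.58. A further cluster over it, chr8:84746426-84746475, was enriched only in replicate 1, with 4.38. WT was highest in the first stretch but not in the second, and the intervals of the libraries overlapped in both.

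The highest *Nfix* values in *Mov10* Deletion were at other positions of the introns. In replicate 1 the highest was chr8:84793497-84793544, with a log2 of 6.01 (3.44 to 11.35). Replicate 2 had 4.25 (1.36 to 9.73) there, and no WT cluster overlapped it. In replicate 2 the highest was chr8:84745813-84745864, with 5.84 (3.22 to 11.20). Chr8:84728444-84728491 had 4.97 in replicate 1. Of the 125 *Nfix* clusters, 10 were enriched in both replicates (8.0%), all of them intronic, and WT clusters overlapped 5 of these and were enriched at 4. Of those not named elsewhere, chr8:84746515-84746558 had 3.75 and 4.95, and the overlapping WT cluster was enriched with 3.34. At chr8:84784726-84784820 the replicates had 3.21 and 4.71, and the WT cluster had 2.26 and was not enriched. No WT cluster overlapped chr8:84738534-84738612 (3.67 and 4.25), chr8:84790574-84790613 (3.97 and 4.25), chr8:84793059-84793082 (3.12 and 3.42) or chr8:84793421-84793496 (4.21 and 4.58). WT had fewer clusters, 61 on *Nfix* against 125. The share of all *Mov10* Deletion clusters without a WT cluster was not counted, so these places cannot be called particular to *Mov10* Deletion. Of all *Mov10* Deletion clusters, 0.71% were enriched in both replicates. The other members had 1 such cluster in *Nfib*, 2 in *Nfic* and 0 in *Nfia*, so that 13 of 900 clusters (1.44%) were enriched in both. The replicates share the coordinates of all 900 clusters, so that their positions are not independent.

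**Figure D3:**
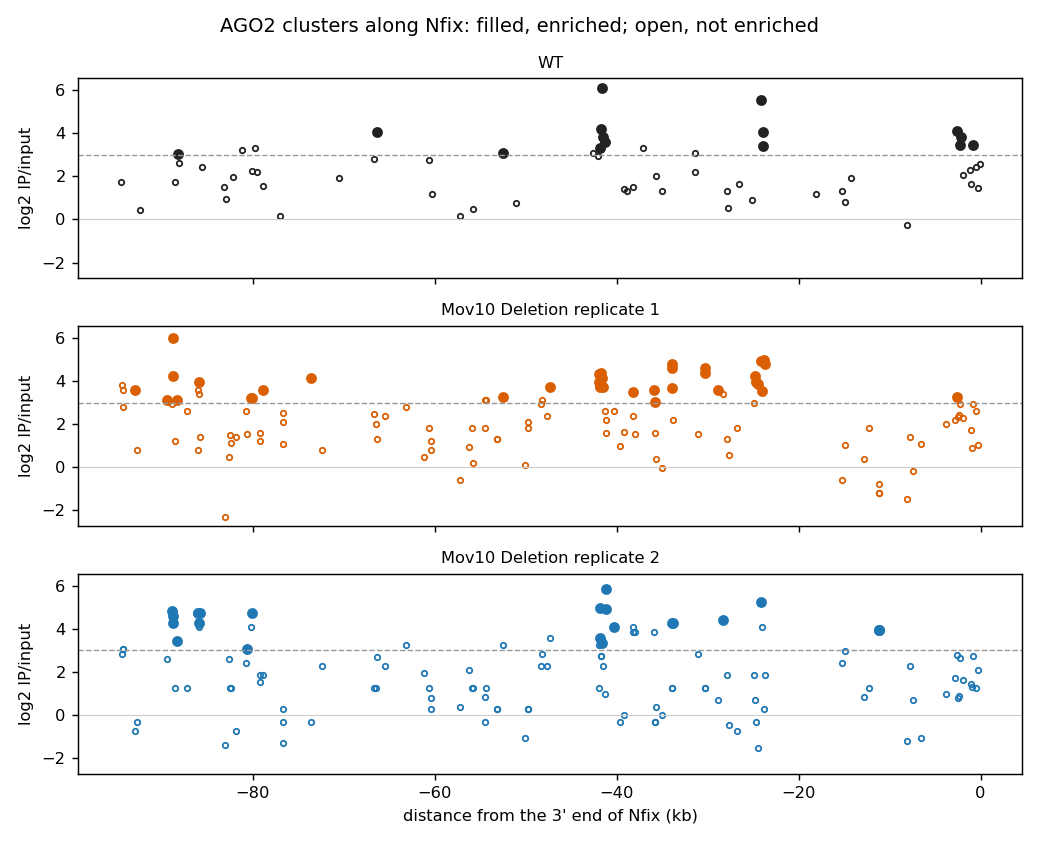
Log2 IP over input of AGO2 clusters (y axis) along *Nfix*, as distance from the 3’ end in kb (x axis), by library. Filled points are enriched clusters; they include intronic clusters 24033, 41584 and 88785 nt from the 3’ end that were enriched in both *Mov10* Deletion replicates, and enriched clusters within 5 kb of the 3’ end number 4 for WT and 1 and 0 for the *Mov10* Deletion replicates.

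*Nfix* also held the enriched cluster with the highest −log10 p of the 4 genes, in its 3’UTR. The WT cluster chr8:84705378-84705643 reached a −log10 p of 71.6 at a log2 of 3.47, and the overlapping *Mov10* Deletion clusters had 67.0 and 48.9 at log2 values of 2.91 and 2.73. Reads could not be inferred for them, so no interval is given. A further 3’UTR cluster, chr8:84707195-84707396, had 4.10 (3.19 to 5.18), and the *Mov10* Deletion clusters over it had 3.28 (2.60 to 4.02) and 2.77 (2.01 to 3.58). Log2 was highest in WT and lowest in replicate 2 at both places, and at the second the intervals of all pairs of libraries overlapped. Only WT reached a log2 of 3 at the first place, and WT and replicate 1 reached it at the second.

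*Nfib* had a 3’UTR cluster enriched in both *Mov10* Deletion replicates. At chr4:82296292-82296456, the replicates had 3.38 (2.69 to 4.15) and 3.61 (2.80 to 4.52), and the overlapping WT cluster had 2.89 (2.16 to 3.71), just under the threshold. The 3 intervals overlapped. In each *Mov10* Deletion replicate 306 of the 335 *Nfib* clusters were intronic, and so were the leading enriched clusters. In replicate 1 they were chr4:82412154-82412217 with 4.89, chr4:82405477-82405534 with 4.38, and chr4:82393164-82393294 and chr4:82471380-82471561 with 3.71 each. The last of these rests on 60 inferred IP reads over 8 input reads, the others on 12 to 17 over 1 or 2. In replicate 2 they were chr4:82471298-82471379 with 5.25, chr4:82386300-82386356 with 4.42 and chr4:82456479-82456556 with 3.92. The only enriched WT cluster, chr4:82471341-82471572, had 3.04 (1.57 to 4.99) and lies in an intron where the RNA gene *2310067E19Rik*, whose strand is not known here, overlaps *Nfib*. Without clusters in overlapping genes, *Nfib* had 0 enriched clusters for WT and 6 for replicate 2.

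*Nfia* had 1 enriched cluster in WT, in the 3’UTR at chr4:98113711-98113763 with a log2 of 3.28 (1.26 to 6.41). In *Mov10* Deletion replicate 1, 381 of the 401 *Nfia* clusters were intronic. All 12 enriched clusters there were intronic too, led by chr4:98031744-98031822 with 4.97. The next, chr4:98032200-98032221 and chr4:98032222-98032234, adjoin each other and have the same value of 4.80, so they may rest on the same reads. In replicate 2 the highest were chr4:97794288-97794377 in an intron with 5.25, chr4:97983791-97983886 in an intron with 3.42 and chr4:97783330-97783406 in the coding sequence with 3.25. No *Nfia* cluster was enriched in both replicates.

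Over the 4 genes, clusters enriched in *Mov10* Deletion were mostly enriched in 1 replicate. Of 105 clusters enriched in at least 1 replicate, 63 were enriched in replicate 1 only, 29 in replicate 2 only and 13 in both. For the 97 that had intervals in both replicates, the intervals overlapped in all 97. The rest had a log2 below 0 and no interval in 1 of the replicates, such as *Nfia* chr4:97794288-97794377 with -1.20 in replicate 1 against 5.25 in replicate 2. Of the 105, 84 had a log2 above 0 in both replicates. Over all clusters of the series, 31892 were enriched in replicate 1, 19112 in replicate 2 and 4363 in both. Enrichment in 1 replicate only was thus the more frequent case over all clusters too, and is not particular to these genes.

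**Figure D4:**
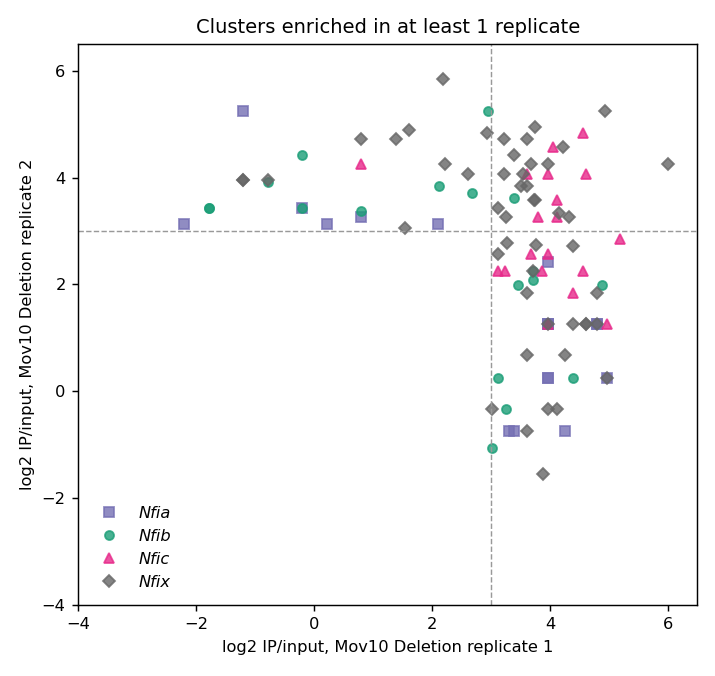
Log2 IP over input in *Mov10* Deletion replicate 2 (y axis) against replicate 1 (x axis) for the 105 clusters enriched in at least 1 replicate, by gene, with dashed lines at 3. Of the clusters in the upper right, 13 also passed the p-value in both replicates, and 10 of these are in *Nfix*.

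miR-124-3p was the miRNA most often ligated to nuclear factor I RNA. Assignments of a miRNA to a target cluster of the genes numbered 58 for WT, 57 for *Mov10* Deletion replicate 1 and 25 for replicate 2, and miR-124-3p took 29, 23 and 15 of them. These are shares of 50.0% (36.6 to 63.4), 40.4% (27.6 to 54.2) and 60% (38.7 to 78.9), and the shares over all assignments of the libraries were 42.2%, 34.8% and 36.8%. The share was higher in the genes than in the whole library each time, and only the interval of replicate 2 left the library's share out. By gene, *Nfib* had 13, 11 and 8 assignments of miR-124-3p, *Nfia* 6, 6 and 3, *Nfix* 6, 4 and 3, and *Nfic* 4, 2 and 1.

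After miR-124-3p came miR-466i-5p with 3, 3 and 4 assignments and miR-9-5p with 4, 3 and 1. let-7b-5p had 1 in each library, all at a single *Nfib* locus. miR-125b-5p, miR-19b-3p, miR-30c-5p, miR-466f-3p and miR-92a-3p were assigned in 2 libraries, WT and *Mov10* Deletion replicate 1. miR-30b-5p had 2 assignments, both in *Mov10* Deletion replicate 1 in the *Nfix* 5’UTR, at chr8:84773654-84773680 with a score of 3.22 and chr8:84773681-84773711 with 3.68, where no AGO2 cluster lay. Of the 44, 50 and 24 target clusters, 12, 7 and 4 lay on an enriched AGO2 cluster, or 27.3%, 14.0% and 16.7%. Over all target clusters of the libraries the shares were 15%, 11.7% and 12%. *Nfix* with 6 and *Nfic* with 5 supplied 11 of the 12 in WT.

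The same miRNA was listed at overlapping positions in at least 2 libraries at 24 loci, and in all 3 libraries at 12 of them. miR-124-3p made up 15 of the 24 and 10 of the 12. Its share of such loci over all genes was not counted. At every locus listed in both *Mov10* Deletion replicates the coordinates were identical in them, so that these positions are not independent. Of its 10 loci in all libraries, 8 were in 3’UTRs and 2 in introns, 3 each in *Nfia*, *Nfib* and *Nfix* and 1 in *Nfic*. The sources used here do not describe the deposited score of a target cluster, which was at least 3 in every library and is not comparable between them without its definition. At the 12 loci it was highest in WT at 9 and lowest in *Mov10* Deletion replicate 2 at 10, the library with the fewest target clusters. Over all assignments of a library the median score was also higher in WT, 4.65 against 4.0 in each replicate. The order of the libraries is therefore not a result about these genes.

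In WT the highest score in the genes was in the *Nfix* 3’UTR. In the *Mov10* Deletion replicates it was in the *Nfib* 3’UTR, with 46.1 in replicate 1 and 17.0 in replicate 2. The miR-124-3p target cluster chr8:84705406-84705566 scored 85.8 for WT, then 22.5 and 16.7 for the *Mov10* Deletion replicates, above 99.5%, 98.1% and 97.7% of the assignments of each library. It lies on the AGO2 cluster with the −log10 p of 71.6. A further locus in the *Nfix* 3’UTR, chr8:84707189-84707284, scored 50.8, 15.7 and 8.66, and lies on the AGO2 cluster with the log2 of 4.10 in WT. Both loci ranked above 91% of the assignments in all 3 libraries, and their AGO2 clusters are 2 of the 4 enriched in the *Nfix* 3’UTR in WT.

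An intron of *Nfix* held the only miR-124-3p locus on an enriched AGO2 cluster in all 3 libraries. At chr8:84728754-84728855, 24042 nt from the 3’ end, the scores were 26.6, 11.8 and 11.9. The AGO2 cluster there had 5.54 (3 to 10.87) in WT, and 4.93 (2.97 to 8.03) and 5.25 (2.57 to 10.64) in the *Mov10* Deletion replicates. The values differed by less than their intervals. Each rests on 1 or 2 inferred input reads and on 55, 35 and 16 inferred IP reads.

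In *Nfib*, the miR-124-3p loci had high scores on moderate AGO2 enrichment. The locus chr4:82296303-82296411, 229 to 380 nt after the stop codon with a small neighbouring WT cluster included, scored 75.7, 46.1 and 13.0 and lies on the AGO2 cluster with 2.89, 3.38 and 3.61. The locus chr4:82295212-82295334 scored 65.5, 26.8 and 17.0, with AGO2 log2 values of 0.76, 1.29 and 0.83. The third, chr4:82294892-82294955, scored 21.8, 25.8 and 7, with AGO2 log2 values of 0.32 (-0.17 to 0.83), 1.02 (0.47 to 1.57) and 1.15 (0.34 to 1.96). High target scores in *Nfib* therefore came with low IP over input at 2 of its 3 loci. The 4 *Nfib* loci of miR-124-3p in only 2 libraries had scores of 3 to 11.8, and their AGO2 clusters were not enriched except in replicate 1 at the intronic chr4:82412154-82412217 named above.

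*Nfia* and *Nfic* had miR-124-3p loci in all 3 libraries too. The *Nfia* 3’UTR locus chr4:98113272-98113351 scored 35.3, 13.8 and 7.98, with AGO2 log2 values of 2.08 (0.96 to 3.38), 1.66 (0.88 to 2.48) and 2.50 (1.43 to 3.66). The second, chr4:98113864-98113923, scored 6.17, 6.55 and 4.98, with 1.93, 1.92 and 1.95. An intronic *Nfia* locus, chr4:97802012-97802085, scored 13.1, 4 and 4.72, and its AGO2 clusters had few reads. The largest AGO2 clusters over these *Nfia* loci were not enriched, and only the second locus touched an enriched cluster, in *Mov10* Deletion replicate 2 at chr4:98113819-98113869 with 3.13. The *Nfic* locus chr10:81399010-81399136 scored 43.7, 21.2 and 12.4, with AGO2 log2 values of 3.34 (2.24 to 4.70), 2.24 (1.41 to 3.13) and 1.84 (0.87 to 2.85). A second *Nfic* locus, chr10:81399973-81400055, was listed in WT with 5.24 and in *Mov10* Deletion replicate 1 with 4, on the enriched clusters with 5.31 and 5.19.

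**Figure D5:**
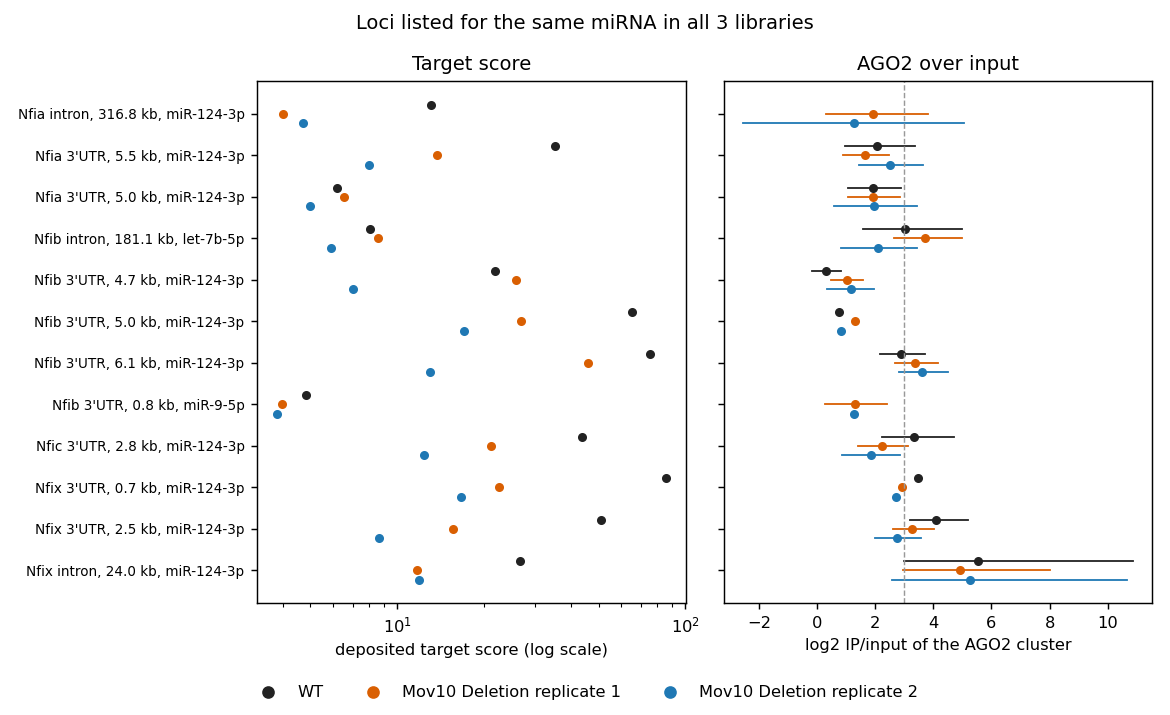
Deposited target score (left, log scale) and log2 IP over input of the largest overlapping AGO2 cluster with its 95% interval (right) at the 12 loci listed for the same miRNA in all 3 libraries, labelled by gene, region and distance from the 3’ end in kb. Points without a bar are clusters whose reads could not be inferred, and WT had no AGO2 cluster at the *Nfia* intron and *Nfib* 0.8 kb loci. Scores are mostly highest in WT but are not comparable between libraries. The *Nfix* intron locus alone lies above a log2 of 3 in every library.

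Measured from the stop codon of the Ensembl canonical transcript, some miR-124-3p loci of different members lay at similar distances. A locus lay 1181 to 1307 nt after the stop codon in *Nfic*, 1344 to 1476 nt in *Nfib* and 1379 to 1474 nt in *Nfix*. The *Nfib* and *Nfix* ranges overlapped, and the *Nfic* range overlapped neither of them. A locus close to the stop codon lay at 229 to 380 nt in *Nfib* and at 262 to 350 nt in *Nfic*. The 3’UTRs ran for 7639 nt in *Nfia*, 6509 nt in *Nfib*, 4126 nt in *Nfic* and 3951 nt in *Nfix* up to the RefSeq 3’ end. The other 3’UTR loci of miR-124-3p overlapped none of another member in distance, at 1727 to 1815 nt in *Nfib*, 3097 to 3257 nt in *Nfix*, and 2032 to 2116 nt and 2621 to 2688 nt in *Nfia*. Other *Nfic* transcripts have their stop codon 4863 or 7187 nt from the RefSeq 3’ end, against 4126 nt in the canonical form. The *Nfic* distances, and their similarity to those of *Nfib* and *Nfix*, hold for the canonical form only. The positions are given as a description.

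miR-19b-3p, a member of the miR-17-92 cluster, was listed inside a miR-124-3p target cluster in 3 of the genes. In WT it scored 13.8 in *Nfib*, 5 in *Nfic* and 3 in *Nfia*, and in *Mov10* Deletion replicate 1 it scored 7.67 in *Nfib*. The *Nfib* and *Nfic* clusters hold the 7-nt match TTTGCAC shown above. The matches lie 1367 and 1208 nt after the stop codon of the canonical transcript. The *Nfia* cluster holds 6 of the 7 letters, 2095 nt after its canonical stop codon. Aligned without gaps on the match, the *Nfib* and *Nfic* sites were identical at 19 of 30 positions, 12 of them among the 15 from the start of the match on, which include the 7 letters of the match. The *Nfia* site shared 9 positions with *Nfib* and 14 with *Nfic*. The *Nfix* 3’UTR had 0 matches to this seed, against 1 in *Nfia* and 2 each in *Nfib* and *Nfic*.

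The let-7b-5p locus was in an intron of *Nfib*, 181145 nt from the 3’ end, inside the overlap with *2310067E19Rik*. Its scores were 8.03 for WT and 8.58 and 5.91 for the *Mov10* Deletion replicates, and it overlapped an enriched AGO2 cluster in each library. In WT this was chr4:82471341-82471572 with 3.04, in replicate 1 chr4:82471380-82471561 with 3.71 (2.64 to 4.98), and in replicate 2 the neighbouring chr4:82471298-82471379 with 5.25 (2.57 to 10.64), while the cluster at chr4:82471380-82471561 had 2.08 (0.82 to 3.44). The 7-nt match CTACCTC lies inside the target cluster of all 3 libraries. Of all windows of the same width in *Nfib*, 0.619% hold this match.

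The other recurring miRNAs with a sequence were listed in 2 libraries, apart from miR-9-5p. miR-92a-3p scored 4.20 in WT and 3.47 in *Mov10* Deletion replicate 1 in the *Nfix* 3’UTR, on AGO2 clusters with 3.85 (2.98 to 4.88) and 2.93 (2.38 to 3.53), and miR-92b-3p scored 7.92 in the same WT cluster. miR-30c-5p scored 4.61 and 3 inside the *Nfib* miR-124-3p cluster near the stop codon, together with miR-30e-5p at 5.97 in WT. miR-125b-5p scored 3.67 and 4.30 in the distal *Nfib* 3’UTR, on AGO2 clusters with -0.06 and 0.80. All of these clusters hold the 7-nt match of their seed, which 0.282 to 1.49% of windows of the same width in the gene hold for the recurring miRNAs of *Nfib* and *Nfix*. miR-9-5p was listed at the end of the *Nfib* 3’UTR in all 3 libraries with 4.83, 3.99 and 3.82, where no 6-nt or 7-nt match was found. In *Nfic* it scored 13.6 in WT on part of the stretch at chr10:81400606-81400658 that was enriched in all libraries. In the *Nfib* coding sequence, miR-93-5p was listed in WT and miR-17-5p and miR-106b-5p in *Mov10* Deletion replicate 1, and the shared seed match GCACTTT lies in both target clusters.

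miR-466f-3p and miR-466i-5p, which recurred at 3 loci in *Nfia* introns, had AGO2 log2 values from -2.52 to 1.80 there. Their scores at these loci ranged from 3.29 to 6.49.

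Of 57 assignments whose miRNA had a sequence, 25 (43.9%) had a 7-nt match inside the target cluster. The share of same-width windows of the gene that hold the match had a median of 0.571% and a maximum of 2.03% over these assignments. By library the numbers were 14 of 24 for WT, 10 of 27 for *Mov10* Deletion replicate 1 and 1 of 6 for replicate 2. By region they were 13 of 30 in 3’UTRs, 4 of 7 in coding sequence and 8 of 20 in introns. Assignments of different libraries to the same place share their site. A match is a description of sequence and was not tested as a site of pairing. The 57 leave out miR-124-3p, with 67 assignments, and the other miRNAs without a sequence, which were not searched. The matches therefore do not bear on the miR-124-3p loci.

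Partners and targets of nuclear factor I proteins in progenitors and glia carried enriched AGO2 clusters in both genotypes. Of 20 genes, the number with at least 1 enriched cluster was 6 for WT and 16 and 9 for the *Mov10* Deletion replicates, and 9 had one in both replicates. Of all genes with a cluster, 18.7%, 40.9% and 32.1% had an enriched cluster in WT and the *Mov10* Deletion replicates. The share of all genes with one in both replicates was not counted, so the 9 have no level to be set against. In WT, high log2 values were 4.22 in *Aldh1l1*, a folate enzyme that marks astrocytes, and 4.15 in *Bbx*, an HMG box gene regulated by NFI. In *Mov10* Deletion they were 5.80 in *Aldh1l1* and 5.58 in *Zbtb20*, a zinc finger repressor of hippocampal and astrocyte development, both in replicate 1, and 5.25 in *Zfp423*, a zinc finger protein of cerebellar development, in replicate 2. *Gfap*, *Fabp7*, *Hes1* and *Insc* had no enriched cluster in any library, with at most 5 clusters each.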

How the data were processed

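AGO2 chimeric eCLIP clusters of 1 WT and 2 *Mov10* Deletion brains were analysed from the deposited lists, and the inputs entered only through the deposited ratios. Per the labels and methods, the authors used UMI-tools 1.1.1, cutadapt 3.2, STAR 2.7.7a on mm10, CLIPper and, for miRNAs, Bowtie 1.2.3. The authors deposited each AGO2 cluster with its log2 IP over input and the −log10 p-value, which stops at 400, and each target cluster with a miRNA and a score of at least 3. Positions are counted from 1.

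Clusters were placed in RefSeq genes (GRCm38.p6) by an overlap of 1 nt on the same strand, with strands for 45268 genes from RefSeq or GENCODE vM39. Adjoining and overlapping clusters count separately. Of the RefSeq genes inside the members on the same strand or of unknown strand (*Gm40208*, *Gm38709*, *2310067E19Rik*, *Mir1191b*), only *2310067E19Rik* held enriched clusters (1, 1 and 4). Regions were taken from GENCODE vM39 protein-coding transcripts of GRCm39 by the cluster's midpoint, in the order 3’UTR, coding sequence, 5’UTR, intron. RefSeq promoter sequences near each gene gave 1 spacing between the builds per gene, so distances from the RefSeq 3’ end link clusters and sites, and no coordinates were converted.

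IP and input reads were inferred as the whole numbers that give both the deposited ratio and p-value, trying 1 to 60 input reads and allowing −log10 p to differ by 0.001. This worked for 97.0%, 99.7% and 99.2% of 1000 enriched clusters sampled per library (WT, *Mov10* Deletion replicates 1 and 2), and 100% of simulated enriched clusters were recovered. An inferred input of 1 read may stand for 0 or 1. Log2 intervals are exact conditional binomial 95% intervals from these reads, and shares carry exact Clopper-Pearson intervals.

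No test was run between genotypes. The members, gene lists and thresholds were chosen with earlier results of these data known. The clusters named are, per gene and library, the 3 enriched clusters of highest log2, those enriched in both *Mov10* Deletion replicates, and those at target clusters listed in at least 2 libraries; other clusters and genes were named after their values were seen. The miRNAs named are those assigned in at least 2 libraries, the 3 with most assignments per gene, and some named for a shared seed. The 20 partner genes, given by counts and by value for those of highest log2, include *Sox9*, *Sox2*, *Hes1*, *Hes5*, *Hey1*, *Notch1*, *Ezh2*, *Zbtb20*, *Insc*, *Bbx*, *Zfp423*, *Fabp7*, *Slc1a3*, *Gfap*, *Aqp4*, *Apcdd1*, *Mmd2*, *Aldh1l1* and *Olig2*, and 1 item is not reported here. Python 3.11.15 with pandas 2.3.3, scipy 1.17.1 and pyfaidx 0.9.0.4 was used.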

Additional observations from a re-analysis of the deposited data

How the results depend on the processing

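Counts over the 4 genes or the partner list stayed within 1.5 times of those reported in 45 of 71 cases in which 1 choice was changed, and counts for single genes in 61 of 84. Values are given in the order WT, *Mov10* Deletion replicate 1, replicate 2. With a −log10 p of at least 5, the enriched clusters fell from 27, 76 and 42 to 19, 44 and 17, those in both *Mov10* Deletion replicates from 13 to 6, those in the last 5000 nt of the genes in replicate 2 from 3 to 1, and the partner genes enriched in replicate 2 and in both replicates each from 9 to 4. With a log2 of at least 2, the enriched clusters in WT rose to 41 and those in both replicates to 26, those in the last 5000 nt from 14 to 24 in replicate 1 and to 9 in replicate 2, and target clusters on an enriched cluster from 7 to 11 and from 4 to 7 in the *Mov10* Deletion replicates. With at least 16 inferred IP reads, 45 remained in replicate 1, 9 in replicate 2 and 3 in both. Without either replicate, the *Mov10* Deletion count ranged from 42 to 76 instead of 13. Within the last 2000 nt the enriched clusters were 2, 1 and 1, and within the last 10000 nt replicate 2 had 5. A score of at least 5 left 32, 17 and 13 assignments, and target clusters with a single miRNA left 34 in WT. An overlap of at least 50% of the target cluster left 2 target clusters on an enriched cluster in replicate 2. Asking for the whole cluster inside the gene changed no count over the genes. Counting adjoining clusters with identical values as 1 (27, 72 and 37), or leaving out clusters in overlapping genes (26, 75 and 38), both chosen after seeing the data, changed no count over the 4 genes by over 1.5 times, but the latter took *Nfib* from 1 to 0 in WT and from 10 to 6 in replicate 2. Low read numbers limit single clusters most in replicate 2, where enriched clusters rest on 8 or more inferred IP reads. No paired analysis was possible because WT has a single library and the input libraries entered only as ratios.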
